A study of Mus musculus with 6 samples.

Results

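The genes described here are the receptors of the common gamma chain (γc) cytokine family in mouse liver, with 2 of their ligands and the kinase that the shared chain engages. The set held Il2rg, Il2ra, Il2rb, Il4ra, Il7r, Il15ra, Il21r, Il15, Il7 and Jak3, chosen by matching the transcript accession of each array probe to these symbols. All 10 were on the array, among 18342 named genes, through 16 probes: 5 genes had 1 probe, 4 had 2 and Jak3 had 3.

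The 6 single-colour arrays measured total RNA of liver or, for 2 Fah arrays, of tissue labelled tumor. The mice were on a BL6 background, with 1 array per mouse group and drug regimen. All mice carried the Fah_del_tm1Mgo allele, which removes the last enzyme of tyrosine breakdown, so that toxic metabolites build up in hepatocytes unless the drug NTBC blocks the pathway upstream. The Fah mice carried that allele alone, and the FCR mice also carried Rag2_del_tm1Fwa and the common gamma chain del tm1Wjl allele, so that the FCR host lacks T and B lymphocytes and γc signalling together and neither loss can be told apart from the other. NTBC was given in drinking water at 7.5 µg/ml. In each genotype 1 array came from mice kept on continuous NTBC (healthy Fah liver, normal FCR liver), 1 from the regimen titled off and 1 from that titled 2xoff/on, both with 2 courses of withdrawal. The withdrawal arrays are labelled tumor in Fah and inflamed liver in FCR, so tumour tissue and genotype cannot be told apart there either. The labels do not settle whether the livers were taken in the off or the on phase, nor whether arrays held single or pooled animals, so p-values measure only the spread between these arrays. In whole tissue, fewer cells of a type and less RNA per cell cannot be told apart.

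The γc chain, encoded by Il2rg, joins a cytokine-specific chain to form the working receptors for interleukins 2, 4, 7, 9, 15 and 21. It carries the kinase JAK3, while the partner chains carry JAK1, and the kinases activate STAT5, STAT6 or STAT3 according to the cytokine. Loss of γc or JAK3 blocks or impairs the development of T and NK cells, and in liver the family is best known on lymphocytes, with IL-4 receptor chains also on macrophages and hepatocytes and IL-7 and IL-15 made by stromal and epithelial cells and by phagocytes.

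The promoter windows of 3 members are printed because their values carry the comparisons: Il2rg, the only member called by genotype, Il15ra, which fell with withdrawal, and Il7r, whose window was the only one of the members' with a STAT motif. They are RefSeq sequences on GRCm38.p6, the 250 bases before the annotated start, read 5′ to 3′ on the gene's own strand. Il2rg lies on the minus strand at chrX:101268256-101268505, Il7r on the minus strand at chr15:9529877-9530126 and Il15ra, at the first of its annotated starts, on the plus strand at chr2:11705043-11705292. Capitals mark the STAT motif TTCNNNGAA.
Il2rg: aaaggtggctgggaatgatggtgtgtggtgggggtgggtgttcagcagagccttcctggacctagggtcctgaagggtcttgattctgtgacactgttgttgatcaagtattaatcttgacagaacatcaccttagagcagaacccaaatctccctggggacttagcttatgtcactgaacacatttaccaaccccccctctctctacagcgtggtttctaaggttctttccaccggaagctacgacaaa
Il7r: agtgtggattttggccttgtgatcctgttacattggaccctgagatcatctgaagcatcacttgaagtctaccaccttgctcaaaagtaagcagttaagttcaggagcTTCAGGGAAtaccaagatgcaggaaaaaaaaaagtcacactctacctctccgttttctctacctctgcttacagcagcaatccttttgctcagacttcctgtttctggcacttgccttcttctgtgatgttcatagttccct
Il15ra: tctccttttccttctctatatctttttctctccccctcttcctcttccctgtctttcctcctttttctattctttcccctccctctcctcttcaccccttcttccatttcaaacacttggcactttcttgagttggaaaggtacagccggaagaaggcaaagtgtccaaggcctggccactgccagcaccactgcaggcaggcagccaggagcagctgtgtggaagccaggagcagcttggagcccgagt
Entries existed for 7 members in 8 windows. The motif TTCNNNGAA, its own reverse complement, lay 142 bases before the Il7r start and in none of the other windows of members, against 7.02% of all 32851 promoter windows of that length. The interferon-response motif, 2 GAAA words set 2 bases apart, searched on both strands, lay in no member's window and in 2.98% of all windows. These are matches of letters in a window and not sites shown to be bound.

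Signals are given as log2 values relative to the array's own 75th percentile, so that 0 is a probe at that percentile, and a gene with several probes is represented by the one with the highest mean over the 6 arrays. The arrays held 43379 spots, and the scanner software placed 60.5% to 74.5% of them well above background. The lowest signal so placed lay between -6.55 and -5.12 on the 6 arrays. Both 2xoff/on arrays were on one slide and the other 4 on another. Each genotype pair therefore shared a slide, but withdrawal arrays shared one with the continuous NTBC arrays only in the off regimen. Several comparisons below use the same arrays and are not independent of each other. Fits with slide as a block or with arrays left out had fewer residual degrees of freedom than the main fits. Their small adjusted p values are therefore not stronger evidence than those of the main fits.

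Il2rg was measured first, as a check of the labels. Its probe gave -3.40 in healthy Fah liver, -1.94 in Fah tumour 1 (off) and -1.98 in Fah tumour 2 (2xoff/on). It gave -6.70 in normal FCR liver, -7.60 in FCR inflamed liver 1 (off) and -7.74 in FCR inflamed liver 2 (2xoff/on). All 3 Fah arrays were well above background and none of the 3 FCR arrays was, which goes with the labelled genotypes. No source used here says where the probe lies relative to the deleted part of the gene.

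**Figure D1:**
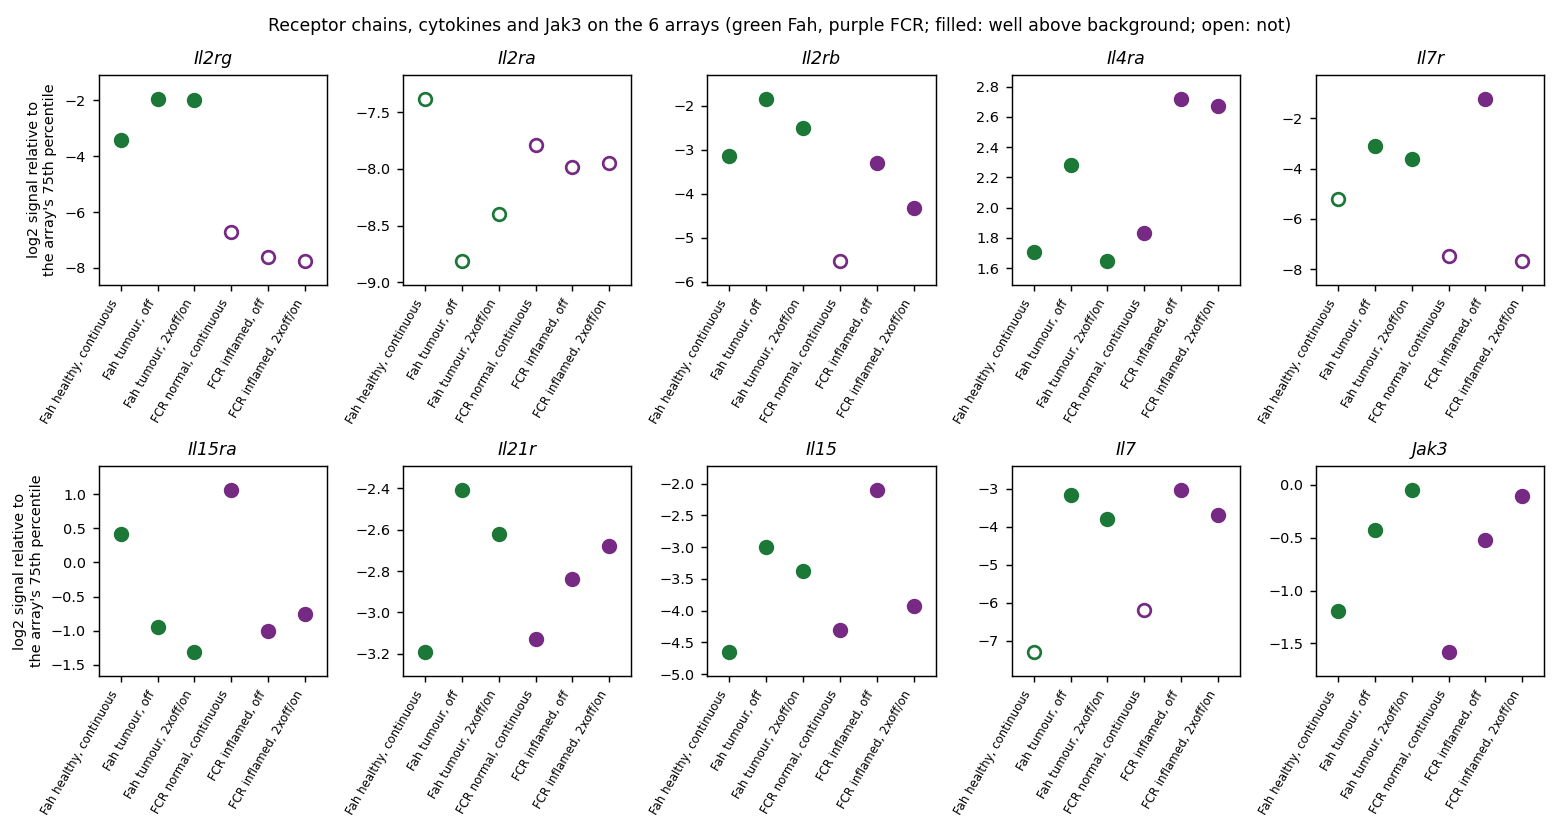
Each panel plots 1 gene on the 6 arrays, in log2 units from its array's 75th percentile, with Fah arrays in green, FCR arrays in purple, filled points well above background and open points not; each panel has its own axis range. Il2rg was measured on the 3 Fah arrays only, Il2ra on none, Il7 on the 4 withdrawal arrays only, and Il15ra was lower on the 4 withdrawal arrays than on the 2 continuous NTBC arrays.

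The question put to these genes was how the receptor system differed between mice with and without γc and lymphocytes. With Fah compared with FCR arrays within each of the 3 regimens (limma, regimen as a block), Il2rg was the only member that passed the threshold, an adjusted p under 0.05 after Benjamini-Hochberg adjustment over all genes. The γc gene is deleted in FCR, so this result checks the labels and is no finding about the other receptors. The fitted difference was 4.91 ± 0.58 (log2, SE, 3 against 3 arrays, limma adjusted p = 0.0176), and Fah was higher in 3 of 3 pairs. Because no FCR array measured the probe, only a bound is known: Il2rg was at least 9.09-fold higher on the Fah arrays. The log2 difference was at least 2.11 on continuous NTBC, 3.76 off and 3.68 in 2xoff/on. Such bounds set the mean of the measured side against, on each dim array, the higher of the probe's own value and the lowest signal well above background. This fit called 48 of 15381 genes tested, 0.312%, with 21 higher and 27 lower in Fah; Il2rg ranked 21 by p. Leaving out an array of the off pair ended the call but hardly moved the difference: it was 4.54 without Fah tumour 1 (limma adjusted p = 0.50) and 4.54 without FCR inflamed liver 1 (limma adjusted p = 0.48), with no gene called in either fit. It was 4.48 and still called without either of the 2xoff/on arrays, where 352 and 332 genes were called. With the probe background modelled by normexp, which compresses dim signals, the Il2rg difference was 1.13 and its adjusted p 0.07.

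Il2rb encodes the signalling chain that IL-2 and IL-15 receptors share, and it is the member next to Il2rg in size of the genotype difference. It gave -3.13, -1.84 and -2.50 in healthy Fah liver, Fah tumour 1 and Fah tumour 2. The FCR values were -5.52, not well above background, in normal liver and -3.30 and -4.32 in inflamed liver 1 and 2. The groups did not overlap, and Fah was higher in 3 of 3 pairs, by at least 2.38 on continuous NTBC and by 1.46 and 1.81 in the off and 2xoff/on pairs. The fitted difference of 1.89 ± 0.40 did not pass the test (limma adjusted p = 0.146). Il2rg, the gene deleted in FCR, and Il2rb were the 2 of 9 members tested whose Fah and FCR arrays did not overlap. Over all genes tested 8.13% did not, 1251 genes.

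Il2ra, the chain that gives the IL-2 receptor its high affinity and marks activated and regulatory T cells, had 2 probes and neither was well above background on any array. The values lay between -8.81 and -7.38 for the brighter probe, all under the lowest measurable signal of their arrays, so they have no order and Il2ra was not tested.

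**Figure D2:**
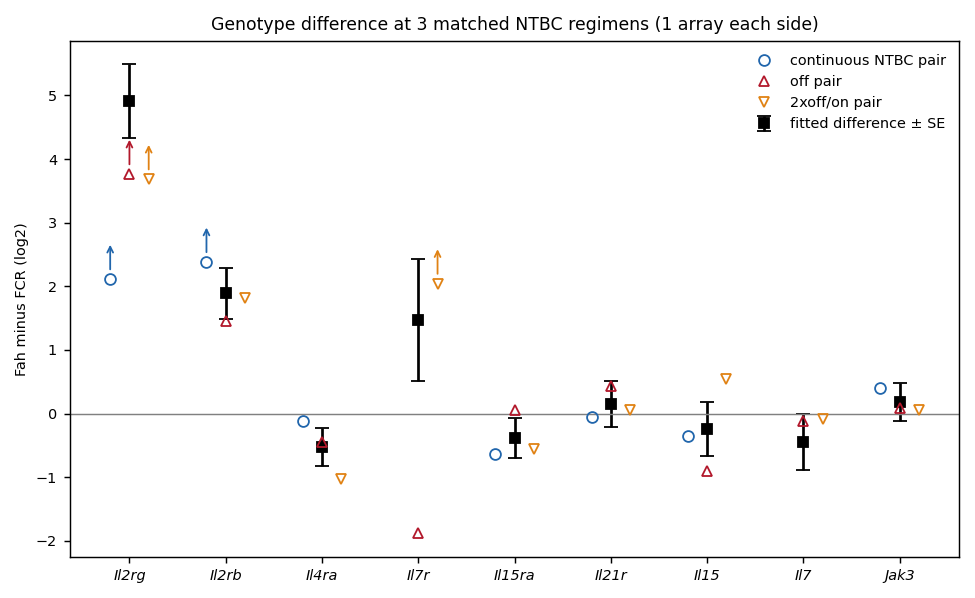
For the 9 members tested, open symbols give the Fah minus FCR difference in log2 signal for each of the 3 regimen pairs (1 array each side) and black squares the fitted difference with its SE. An arrow marks a lower bound, where 1 array of the pair was not well above background, and pairs measured on neither array are left out. All 3 pairs of Il2rg and Il2rb lie above 0, and the pairs of Il7r lie on both sides of it, at -1.88 and at least 2.04.

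The other members did not pass the genotype test, and their pairs were small or of mixed sign. Il4ra, the chain shared by the IL-4 and IL-13 receptors, went the other way. Fah was lower in 3 of 3 pairs, with differences of -0.12, -0.44 and -1.02. The fitted difference was -0.53 ± 0.30 (limma adjusted p = 0.519). Its signal was 1.71, 2.28 and 1.65 on the Fah arrays and 1.83, 2.72 and 2.67 on the FCR arrays, in the order continuous, off and 2xoff/on, so the groups overlapped. Il15ra, which binds IL-15 and presents it to neighbouring cells, differed by -0.38 ± 0.31, with an adjusted p of 0.624 in the same limma fit. Il21r, the IL-21-specific chain, was well above background on all 6 arrays, between -3.19 and -2.41, and differed by 0.15 ± 0.36. Il15 differed by -0.24 ± 0.43. Il7 differed by -0.44 ± 0.44, with pair differences of -0.12 off and -0.09 in 2xoff/on and no measured value on continuous NTBC. Jak3 differed by 0.18 ± 0.30, with Fah higher in 3 of 3 pairs but by 0.40, 0.09 and 0.06; its other probes differed by 0.46 ± 0.33 and 0.80 ± 0.44. Over the 9 members tested, Il2rg included, the median difference was 0.15, beside -0.11 over all genes. Il2rg is deleted in FCR, and without it the median lies between Il15 at -0.24 and Il21r at 0.15.

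Il7r, the IL-7-specific chain, which is also part of the receptor for TSLP, varied most between arrays. Its brighter probe gave -5.23, not well above background, in healthy Fah liver and -3.11 and -3.61 in Fah tumour 1 and 2. In FCR it gave -7.47 and -7.66, not well above background, in normal liver and inflamed liver 2, but -1.23 in inflamed liver 1, the highest of the 6. The genotype difference was 1.47 ± 0.96 (limma adjusted p = 0.557), but it was 3.14 without either array of the off pair and 0.18 without either array of the 2xoff/on pair. The second Il7r probe gave -6.17 and -5.21 on the tumour arrays and -5.00 on FCR inflamed liver 1, and was not well above background on the other 3. Both probes thus had their highest value on FCR inflamed liver 1, although the second stood out far less there.

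In the tumour against inflamed comparison (limma model of the 4 groups, 2 against 2 arrays) the question was whether the receptors differed between the diseased livers of the 2 genotypes. Il2rg, the gene deleted in FCR, again was the only member called, so none of the others was. Its difference was 5.71 ± 0.68 (limma adjusted p = 0.0205), at least 13.2-fold higher in tumour. The fit called 33 of 15381 genes, 0.215%, 11 higher and 22 lower in tumour. Il2rb differed by 1.64 ± 0.67 (limma adjusted p = 0.50), Il4ra by -0.73 ± 0.48 and Il15ra by -0.25 ± 0.51, none of them past the threshold. Il7r differed by 1.08 ± 1.67, and by 4.30 without FCR inflamed liver 1 but -2.13 without FCR inflamed liver 2. That comparison of Il7r turned on which of the FCR arrays was kept.

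The series' design text names another comparison, the Fah tumour arrays against normal FCR liver and FCR inflamed liver 2, which leaves out FCR inflamed liver 1. On those 4 arrays no gene of 15175 was called (0%), 1756 had an unadjusted p under 0.05, and the smallest limma adjusted p was 0.112. Il2rg was higher in tumour by 5.26 ± 0.66 (limma adjusted p = 0.295), a bound of at least 12.3-fold. Il7r was higher by 4.21 ± 0.63 with the same adjusted p of 0.295, at least 4.66-fold, and Il2rb by 2.75 ± 0.68 (limma adjusted p = 0.337). Normal FCR liver and inflamed liver differ in regimen from each other, so this contrast mixes genotype with withdrawal. Without FCR inflamed liver 2 it called 5 members, among them these 3, of 2203 genes called, and without normal FCR liver it called Il2rg alone of the members, of 46 genes.

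On continuous NTBC, with 1 array for each genotype and so no test, the log2 signal was higher in Fah by at least 2.11 for Il2rg and at least 2.38 for Il2rb, neither of which was well above background in FCR. Il7r and Il7 were not well above background on either array. The remaining 5 measured members differed by 0.64 or less in either direction, Il15ra by -0.64 and Jak3 by 0.40.

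The change with NTBC withdrawal was examined in each genotype against its 1 continuous NTBC array. In Fah liver, Il7, which stromal cells make and on which T and B cell precursors depend, was the only member called. It gave -7.29, not well above background, in healthy liver and -3.16 and -3.79 in tumour 1 and 2, a difference of 3.81 ± 0.85 (limma adjusted p = 0.0375), at least 3.12-fold higher. The difference was 3.50 without Fah tumour 1 and 4.12 without Fah tumour 2, with limma adjusted p values of 0.116 and 0.0532. The fit called 778 of 15381 genes, 5.06%, of which 604 were higher in tumour. With slide as a block Il7r was called as well, at 3.61 (limma adjusted p = 0.000313). In FCR liver Il7 gave -6.19, not well above background, in normal liver and -3.04 and -3.70 in inflamed liver 1 and 2. That difference of 2.82 ± 0.85, at least 4.40-fold, did not pass the test (limma adjusted p = 0.157). In FCR no member of 9 was called among 270 genes, 1.76% of those tested, 239 of them higher with withdrawal; 2 members had an unadjusted p under 0.05. The inflamed arrays lay on different slides, and with slide as a block the limma fit called 4 members among 1893 genes: Il7 at 3.14 (adjusted p = 0.00272), Il7r at 4.76 (1.09e-06), Il2rb at 2.13 (0.0453) and Il15ra at -1.91 (0.0458). Without FCR inflamed liver 2, Il7r was called at 6.25 (limma adjusted p = 0.00195) among 1742 genes.

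Because several members moved the same way in both genotypes, the mean of the withdrawal changes of Fah and FCR was fitted as well, a contrast chosen after the values were seen. It called 1833 of 15381 genes, 11.9%, 1329 higher and 504 lower, and 2 of the 9 members tested, too small a count to set the members apart. With slide as a block it called 5 members among 3445 genes, adding Il2rb at 1.75, Il7r at 4.19 and Il15 at 1.93 (limma adjusted p = 0.0141, 1.88e-09 and 0.0063). Il7 rose by 3.32 ± 0.60 (limma adjusted p = 0.00923), at least 3.71-fold, and was measured on 4 of 4 withdrawal arrays and on neither continuous NTBC array. On the slide that held both regimens the log2 signal of Il7 was at least 1.95 higher off NTBC in Fah and at least 2.47 higher in FCR. Its second probe was well above background on Fah tumour 1 alone, at -6.09, so its values on the other arrays have no order. With normexp the rise of the brighter probe was 0.33 (limma adjusted p = 0.678).

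**Figure D3:**
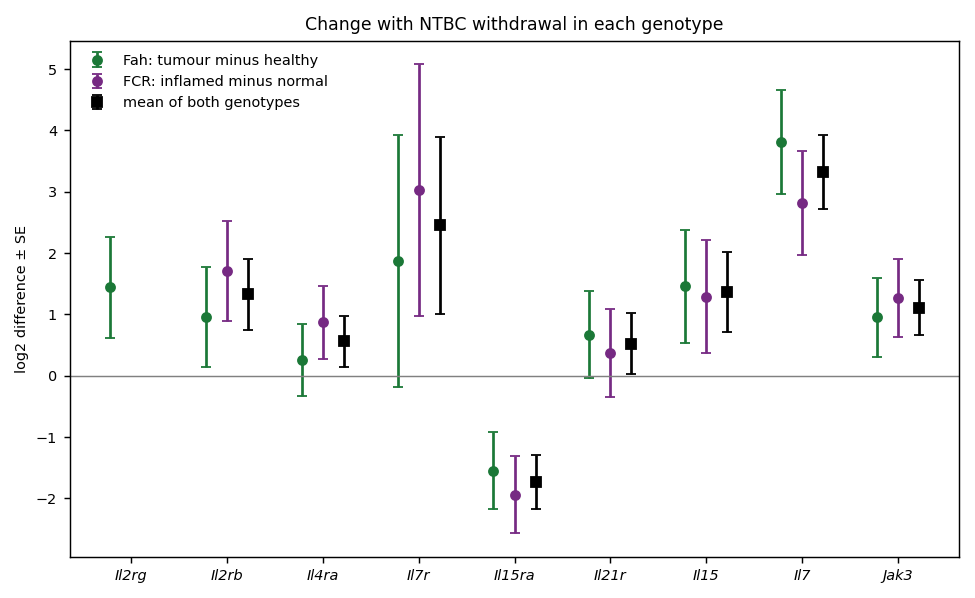
For the 9 members tested, the change in log2 signal with NTBC withdrawal is plotted with its SE for Fah (2 tumour arrays against 1), for FCR (2 inflamed arrays against 1) and for the mean of both. Il7 lies highest in Fah and in the mean, with Il7r beside it in FCR, and Il15ra is the only member below 0 in both genotypes; Il2rg is plotted for Fah only, as no FCR array measured it.

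Il15ra moved the other way. Its signal was 0.42 in healthy Fah liver and -0.95 and -1.31 in tumour 1 and 2, and 1.06 in normal FCR liver and -1.00 and -0.75 in inflamed liver 1 and 2. All 4 withdrawal arrays lay below both continuous NTBC arrays. It fell by 1.74 ± 0.44 on the log2 scale in the mean of both genotypes (limma adjusted p = 0.0366), and by 1.37 in Fah and 2.06 in FCR on the slide that held both regimens. The second probe, at -1.03, -2.39 and -2.80 in Fah and -0.45, -2.58 and -2.03 in FCR, differed by -1.72 ± 0.51. Fitted probe by probe over 30427 probes, the adjusted p values of the pair were 0.0765 and 0.107, so the call rests on the fit with 1 probe per gene. Without Fah tumour 1 the adjusted p was 0.098 and without Fah tumour 2 it was 0.18. In Fah alone the change was -1.55 ± 0.63 (limma adjusted p = 0.225) and in FCR alone -1.94 ± 0.63 (limma adjusted p = 0.189).

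Il15, the cytokine that IL-15 receptor alpha presents, was measured on all 6 arrays and did not follow its receptor. It gave -4.65, -3.00 and -3.38 in healthy Fah liver and tumour 1 and 2, and -4.30, -2.10 and -3.93 in normal FCR liver and inflamed liver 1 and 2. Every withdrawal array was above both continuous NTBC arrays, but the mean change of 1.37 ± 0.65 did not pass the test (limma adjusted p = 0.226), and FCR inflamed liver 1 was again the highest. Without FCR inflamed liver 1 the mean change was 0.92, and without FCR inflamed liver 2 it was 1.83, with an adjusted p of 0.0333.

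Jak3, the kinase bound to γc, gave -1.19, -0.43 and -0.05 on the Fah arrays and -1.58, -0.52 and -0.11 on the FCR arrays, in the order continuous, off and 2xoff/on. Its signal was thus present in livers whose Il2rg probe was not above background, and the withdrawal arrays lay above the continuous NTBC arrays in both genotypes. The mean change was 1.11 ± 0.45 (limma adjusted p = 0.162), and the other probes changed by 0.71 ± 0.51 and 0.71 ± 0.61. On FCR inflamed liver 1 the third probe read -3.30, below its normal FCR value of -2.63, so the probes disagreed on that array.

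**Figure D4:**
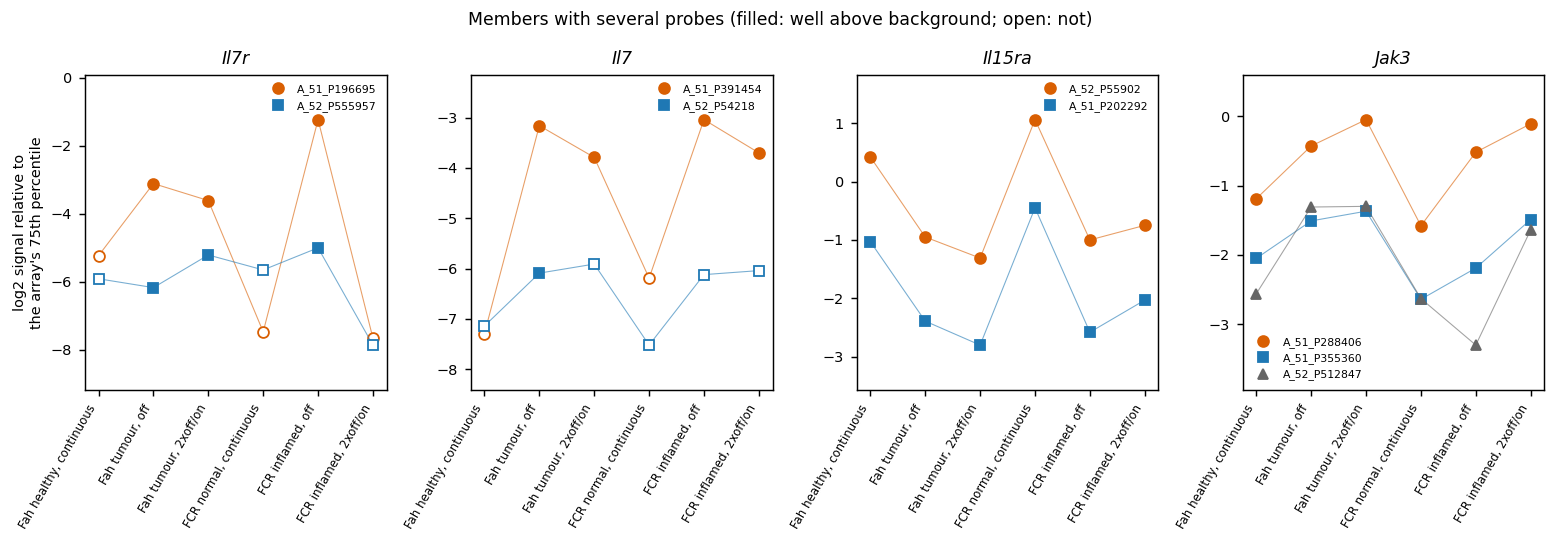
The members with several measured probes are plotted probe by probe on the 6 arrays, as log2 signal on the percentile scale (filled: well above background; open: not), with lines joining the points of a probe only to guide the eye. The Il15ra probes run in parallel, while the Il7r probes part most on FCR inflamed liver 1, at -1.23 and -5.00, and the Jak3 probes part there too.

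The remaining receptor chains did not pass this test. Il2rb changed by 1.33 ± 0.58 (limma adjusted p = 0.184), Il7r by 2.45 ± 1.45, Il4ra by 0.56 ± 0.42 and Il21r by 0.52 ± 0.50. Taken by genotype, the change in Fah and in FCR was 0.96 ± 0.81 and 1.71 ± 0.81 for Il2rb, 0.26 ± 0.59 and 0.87 ± 0.59 for Il4ra, and 1.87 ± 2.05 and 3.03 ± 2.05 for Il7r. Il2rg was 1.44 ± 0.83 higher in tumour than in healthy Fah liver (limma adjusted p = 0.431), while its FCR values have no order below background and give no change. Without FCR inflamed liver 1 the mean change of Il7r was 0.84, and without FCR inflamed liver 2 it was 4.06 (limma adjusted p = 0.000653); the second Il7r probe changed by -0.28 ± 0.99. The median over the 9 members was 1.11, and 1.22 without Il2rg, beside -0.02 over all genes. Il7 and Il7r were well above background on neither continuous NTBC array and entered the fit through withdrawal arrays. Both medians therefore rest in part on dim values. Whether the withdrawal change differed between genotypes was tested directly, and no gene of 15381 was called (0%), with 331 at an unadjusted p under 0.05 and a smallest limma adjusted p of 0.788. That difference was -0.75 ± 1.15 for Il2rb and -1.16 ± 2.90 for Il7r, Fah minus FCR.

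The 4 pathway lists gave the rest of the pathway. The first list held 10 ligands and receptor chains, of γc itself and of the related IL-13 and TSLP receptors, and 7 could be tested. Il9 and Il9r were well above background on no array and Il21 on 1. Of the tested genes only Il2 and Il4 encode γc ligands, and the others belong to the IL-13 and TSLP systems. None of the 7 was called by genotype, with a median difference of 0.14, and none by withdrawal. By genotype the largest differences were those of Tslp, the ligand that uses Il7r, at 0.96 ± 0.58, Il13 at -0.70 ± 0.41 and Crlf2, the TSLP receptor chain, at -0.43 ± 0.35. By withdrawal they were Il2 at 2.43 ± 1.60, which was 3.87 and called without Fah tumour 1 (limma adjusted p = 0.000455), Tslp at 1.35 ± 0.74 and the decoy receptor Il13ra2 at -0.87 ± 0.64.

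Of 16 genes of signalling and its inhibitors, all 16 were tested and none was called by genotype (median -0.03) or by withdrawal (median -0.21). Socs2 and Cish, feedback inhibitors that STAT5 induces, had the largest genotype differences beside Socs3. Socs2 gave 2.50, 1.05 and 1.26 on the Fah arrays and 0.84, -0.85 and 0.07 on the FCR arrays, in the order continuous, off and 2xoff/on, and differed by 1.59 ± 0.29 (limma adjusted p = 0.114). The groups did not overlap, the lowest Fah array being above the highest FCR array, as 8.13% of all genes tested did not in either direction. Socs2 is also the largest difference picked from 16 genes. Socs2 passed the test in 4 of 15 settings. It was called at 1.78 without Fah tumour 2 (limma adjusted p = 0.00695) or without FCR inflamed liver 2 (0.00681). Those fits rest on the same pairs. It was also called at 1.55 without the continuous NTBC pair (0.0453) and at 1.41 with normexp (0.0046). Without Fah tumour 1 or FCR inflamed liver 1 it differed by 1.43 and was not called (limma adjusted p = 0.589 and 0.562). The common floor gave no call either (0.563). Cish differed by 0.78 ± 0.31 and Socs3 by -0.70 ± 0.28, both with a limma adjusted p of 0.40. With withdrawal Stat5b changed by -1.36 ± 0.45 (limma adjusted p = 0.0915), Cish by -1.31 ± 0.45 and Socs2 by -1.29 ± 0.46. Each of these 3 genes passed the test in 2 of 14 settings. Without FCR inflamed liver 2 the changes of Stat5b, Cish and Socs2 were -1.10, -1.09 and -1.52. Without FCR inflamed liver 1 they were -1.62, -1.53 and -1.06. Without Fah tumour 1 they were -1.41, -1.44 and -1.24, and without Fah tumour 2 -1.30, -1.18 and -1.34. With slide as a block Socs2 was called at -1.57 (limma adjusted p = 0.014), but Stat5b and Cish were not (0.155 and 0.199). Summed hepatocyte markers were lower on the same withdrawal arrays, with values given below, and their part in the result was not tested.

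Of 15 STAT5 target genes 14 were tested, Foxp3 being well above background on no array. None was called by genotype (median 0.05), where Tbx21, the T-bet gene of NK and T helper cells, differed by 0.83 ± 0.43. With withdrawal 1 of 14 rose and none fell (median 0.52): Prdm1, a repressor that drives terminal lymphocyte differentiation and also acts in macrophages, rose by 2.57 ± 0.66 (limma adjusted p = 0.0369), at least 2.94-fold, and by 2.44 without Fah tumour 2 (limma adjusted p = 0.0566). Lta, a lymphotoxin, changed by 1.53 ± 0.83 and the cyclin gene Ccnd2 by 1.36 ± 0.50, which was 1.58 and called without FCR inflamed liver 1 (limma adjusted p = 0.0265).

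Of 12 genes induced by IL-4 and IL-13 through STAT6, 11 were tested. None was called by genotype (median 0.29), where Chil3 differed by -2.20 ± 1.03, Ccl17 by 1.38 ± 0.59 and Ccl11 by 1.29 ± 0.47. Chil3 turned on single arrays: it differed by -3.50 and was called without Fah tumour 2 (limma adjusted p = 1.08e-11) or FCR inflamed liver 2 (1.33e-11), by -0.21 without Fah tumour 1 or FCR inflamed liver 1, and by -2.89 without the continuous NTBC pair (5.49e-06). Ccl17 ran from 0.67 without either 2xoff/on array to 2.23 without the continuous NTBC pair, where it was called (limma adjusted p = 0.00283). With withdrawal 2 of 11 rose and none fell (median 1.72). Ccl17, a chemokine for T cells made by dendritic cells and macrophages, gave -5.63, -1.85 and -1.36 on the Fah arrays and -5.32, -3.49 and -4.18 on the FCR arrays. It rose by 2.76 ± 0.56 (limma adjusted p = 0.0145) in the mean of both genotypes, and in Fah alone by 4.02 ± 0.79 (limma adjusted p = 0.0245), at least 11.4-fold, and by 3.78 without Fah tumour 2 (limma adjusted p = 0.0795). Chil3, a secreted macrophage lectin, rose by 5.17 ± 1.25 (limma adjusted p = 0.0299), and its value of 7.04 on FCR inflamed liver 1 was above the other 5 arrays, which ran from -2.82 to 1.78. Clec10a, a macrophage lectin, changed by 2.38 ± 0.76 (limma adjusted p = 0.081) and was called, at 1.63 to 3.12, in each fit that left out 1 of the 4 withdrawal arrays. In FCR alone none of the 11 was called, with 1 at an unadjusted p under 0.05 in the limma fit.

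Markers of the cells that carry these receptors moved with genotype, and their part in the Il2rg and Il2rb results was not tested. Summed signals are given relative to the array's 75th percentile on a linear scale. The summed T cell markers (12 of 13 named on the array) ran from 2.52 to 2.68 on the Fah arrays and from 1.25 to 1.84 on the FCR arrays, and 7 of the 12 were well above background on all 3 FCR arrays. Cd3g, Cd8a and Cd28 were above it on no FCR array, while Cd3e and Cd4 were measured on all 6 arrays and differed by -0.17 ± 0.32 and -0.29 ± 0.41 (Fah minus FCR, log2). B and plasma cell markers (11) ran from 1.2 to 4.46 in Fah and from 0.389 to 0.457 in FCR, where Ms4a1 and Pax5 were at background; Blk was at background on all 6 arrays. NK cell markers (10) were 0.312, 1.06 and 1.53 in Fah and 0.116, 0.738 and 0.961 in FCR, with Ncr1, Klre1, Prf1 and Gzma at background on all FCR arrays. Eomes made up most of the FCR withdrawal sums: without it the 9 other markers summed to 0.111, 0.227 and 0.16 in FCR and to 0.305, 1.04 and 1.47 in Fah. Of the tested markers, 1 of 11 T cell, 1 of 9 B cell and 2 of 8 NK cell genes were called higher in Fah, with median differences of 1.02, 1.63 and 1.80. Over all genes tested 0.312% were called in either direction, and the median difference was -0.11. Eomes, a transcription factor of NK cells, read -7.59 in normal FCR liver and -0.97 and -0.32 in FCR inflamed liver 1 and 2, and rose by 6.95 ± 0.99 (limma adjusted p = 0.0142), at least 29.1-fold, in livers whose Il2rg probe was not above background.

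**Figure D5:**
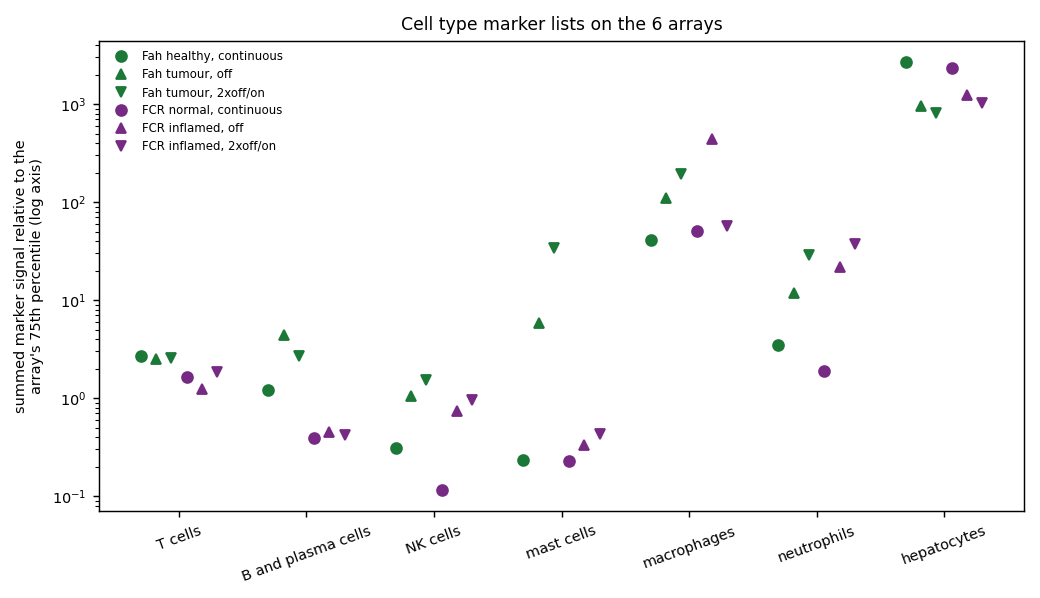
The summed signal of 7 cell type marker lists, relative to the array's 75th percentile, is plotted on a log axis for the 6 arrays (green Fah, purple FCR; circles continuous NTBC, upward triangles off, downward triangles 2xoff/on). B and plasma cell markers separate the genotypes, hepatocyte markers fall from 2690 and 2320 on continuous NTBC to between 813 and 1250, and macrophage markers reach 438 on FCR inflamed liver 1.

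Other lists moved with withdrawal, beside Il7 and Il15ra, and their part in those results was not tested. The counts called are from the mean of both genotypes, where 11.9% of all genes tested were called and the median change was -0.02. All 10 hepatocyte markers were well above background on all 6 arrays. Their sum was 2690 in healthy Fah and 2320 in normal FCR liver and 813 to 1250 on the withdrawal arrays, and 4 of 10 fell, with a median change of -1.29 (log2). Summed stromal and endothelial markers were 43 and 44.8 on continuous NTBC and 88.9 to 202 on the withdrawal arrays. The 4 of 10 that rose were the matrix genes Col1a1, Col1a2, Col3a1 and Dcn. The endothelial markers Pecam1, Cdh5, Kdr and Stab2 changed by -0.13, 0.01, -0.85 and -0.72 and were not called. Neutrophil markers (7 of 8 named) were 3.46 and 1.88 on continuous NTBC and 11.9 to 37.8 on the withdrawal arrays, and 6 of 7 rose. Csf3r went the other way, by -2.10 ± 0.71, and was not called. Mast cell markers (6 of 7 named) were 5.81 and 34.5 on the tumour arrays and 0.23 to 0.429 on the other 4. Dendritic cell markers (7 of 8 named) were 1.04 and 0.877 on continuous NTBC and 1.31 to 4.22 on the withdrawal arrays. Summed macrophage markers (10 of 11 named) were 438 on FCR inflamed liver 1 and 40.8 to 193 on the other 5. FCR inflamed liver 1 was also the array with the highest Il7r, Il15 and Chil3. The largest terms of its macrophage sum were Marco and Cd5l, with log2 signals of 7.62 and 7.37. Adgre1, Vsig4 and C1qc were also highest on that array, but Csf1r, Clec4f, Timd4, C1qa and C1qb were not.

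As a description over 6 arrays that share genotype and regimen, and with no test, the genes most alike to 4 members by Pearson's r among 15380 others were as follows. For Il2rg they were Dysf (r = 0.992), Gimap3 (r = 0.991) and Rab6b (r = 0.989). Dysf, the membrane repair protein dysferlin, was well above background on all 6 arrays, at -1.47, -1.18 and -1.17 in Fah and -2.35, -2.72 and -2.49 in FCR. Gimap3, a lymphocyte GTPase, and Rab6b were well above background on the 3 Fah arrays only. For Il4ra they were Tekt1 (r = 0.967), the kinase gene Akt1 (r = 0.963) and Neo1 (r = 0.956). For Il15 they were Mphosph6 and St8sia4 (both r = 0.999) and Ywhah (r = 0.996), each highest on FCR inflamed liver 1. For Jak3 they were Ddias (r = 0.997), the matrix protease gene Mmp9 (r = 0.994), and Olfr1411 (r = 0.989), which was well above background on the tumour arrays only.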

How the data were processed

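RNA of the liver and tumour samples was labelled with Cy3 and hybridised to Agilent single-colour mouse arrays, 1 per sample (6 in all). The deposited scanner tables hold processed signal intensity per spot, background-corrected by the authors' run of Agilent Feature Extraction, version 10.7.3.1 per the file headers and 10.5 per the submitters' processing notes. The authors' deposited series values are on a log2 scale with medians of 6.45 to 6.48; their normalization was not given in the sources used here, and they were used only as an alternative. Each probe's log2 processed signal minus its array's 75th percentile was used. Control spots were left out, 29 of 41174 probes were missing on an array, and no spot was saturated. Accessions named 26912 probes and 18342 genes through RefSeq GRCm38.p6; the brightest probe on average stood for a gene. A gene entered a fit if at least 2 of its arrays were well above background. Tests used limma 3.58.1 (R 4.3.3, lmFit, eBayes with intensity trend) with Benjamini-Hochberg adjustment at 0.05 over all genes. The main fits had 2 residual degrees of freedom, tests being stabilised across genes. Fits with slide as a block, without the continuous NTBC pair or with an array left out had fewer. The script was tested on simulated data. Few arrays limit the precision.

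Pairs in the genotype fit come from the regimen in the titles, not from shared animals. Every member and probe is reported, and of each pathway list every called gene and the 3 with the largest difference, for the genotype and the withdrawal comparison. The members and lists were chosen with earlier results of these data known. The mean of the withdrawal changes and the fits of single probes were chosen after seeing the data. Alternatives were normexp (offset 50), quantile or median scaling, other filters, the mean of probes, a common floor, the deposited values, no intensity trend, slide or regimen as a block, and leaving out arrays.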

Additional observations from a re-analysis of the deposited data

How the results depend on the processing

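Members called were counted again under each setting, beside 1, 1, 1, 0, 0, 0 and 2 as reported for genotype, tumour against inflamed, tumour against healthy, inflamed against normal, the difference of changes, the design text comparison and withdrawal in both genotypes. With genotype, the count was 0 with normexp, quantile normalization, the common floor, the authors' deposited values and no regimen block, and 0 to 1 with 1 withdrawal array left out. In tumour against inflamed it was 0 with normexp, the common floor and the deposited values. In tumour against healthy it was 0 with normexp, quantile normalization, median scaling, the mean of probes, the common floor, the deposited values and no filter, 2 with slide as a block (Il7 and Il7r), and 0 to 1 with 1 array left out. In inflamed against normal it was 4 with slide as a block (Il7, Il7r, Il2rb and Il15ra) and 0 to 1 with 1 array left out. In the design text comparison it was 0 to 5 with 1 array left out. With withdrawal in both genotypes it was 1 with normexp, quantile normalization and no filter, 0 with the common floor and the deposited values, 5 with slide as a block (Il7, Il7r, Il2rb, Il15ra and Il15), and 1 to 4 with 1 array left out. With slide as a block, all genes called numbered 2514 in tumour against healthy, 1893 in inflamed against normal and 3445 with withdrawal in both genotypes. The main fits called 778, 270 and 1833 of 15381 genes. The larger member counts thus came from fits that called more genes of every kind. The cause of the shifts in these counts was not tested.

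The Il2rg genotype difference lay between 1.13 and 5.71 and lost its call in 7 of 15 settings; in tumour against inflamed it lay between 1.40 and 5.79 and lost it in 3 of 14. Il7 lost its call in 9 of 14 settings in tumour against healthy and in 3 of 14 with withdrawal in both genotypes. Il15ra lost its withdrawal call in 6 of 14, with differences between -2.05 and -1.44. Ccl17 lost its call in 5 of 14 settings in tumour against healthy and in 4 of 14 with withdrawal. With normexp its rise was 1.18 and 0.66 (limma adjusted p = 0.334 and 0.385). Chil3 and Prdm1 each lost the withdrawal call in 5 of 14, and Prdm1 changed sign in 1 other. Counts of genes called over all settings ran from 0 to 987 for genotype, 0 to 968 for tumour against inflamed, 0 to 2514 for tumour against healthy, 0 to 1893 for inflamed against normal, 0 to 91 for the difference of changes, 0 to 2203 for the design text comparison and 0 to 3681 for withdrawal in both genotypes.

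The following differences, none past the test as reported except that of Prdm1, changed sign. By genotype, Il7r was -0.11 with normexp and -0.13 with the common floor, Il21r -0.03, Tslp -0.29 and Ccl11 -0.09 with normexp, and Il15 ran from -0.63 to 0.10 with 1 array left out. In tumour against inflamed, Il7r was -0.36 with normexp, -0.19 with the common floor, -0.17 with the deposited values and -2.13 to 4.30 with 1 array left out. In tumour against healthy, Il4ra was -0.11 with median scaling and -0.06 to 0.57 with 1 array left out, and Il7r -0.13 with normexp. In inflamed against normal, Il7r was -0.19 to 6.25 with 1 array left out. The difference of changes was 0.11 for Il2rb with normexp and -4.37 to 2.06 for Il7r with 1 array left out. With withdrawal in both genotypes, Il2 was -0.14 with slide as a block, and Tslp -0.43, Prdm1 -0.00 and Lta -0.40 with normexp.

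Dim signal limits some values: Il7r and Il7 on continuous NTBC, and Il2rg in FCR, have only bounds, and normexp and the floor compress them. No paired analysis was possible because the replicate numbers of the labels mark no shared animals; the regimen block stands in the genotype fit.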

Other observations

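Il2, the T cell growth factor, read -0.42 on Fah tumour 2 and -0.55 on FCR inflamed liver 2, the arrays of the second slide, and between -6.16 and -5.12 on the 4 arrays of the first slide, where neither continuous NTBC array was well above background. Regimen and slide cannot be told apart for these arrays.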
